A study of Mus musculus with 27 samples.

Results

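The late phase of fetal brain development in C57BL/6J mice, an inbred strain that was sequenced beside AKR/J and Cav1-null mice (B6.Cg-Cav1tm1Mls/J, which lack caveolin-1), was followed from gestational day 15 (d15) to day 17 (d17). The 6 libraries, 3 of d15 and 3 of d17, were taken from the 27 libraries of the series by their labels of strain and day, and 19888 of the 55416 genes in the table had enough reads to be tested between them. Each library was made from the poly(A) RNA of a whole brain dissected from a fetus that had been washed and snap frozen. All 6 fetuses are labelled female, no agent is named for any of them, and the day of the vaginal plug was counted as day 1. The 3 C57BL/6J libraries of d12 were used to show from which level a gene reached d15. Whether the fetuses of a group came from separate litters is not stated, so that the p-values measure the spread between these libraries. Since whole brain was used, a lower level cannot be told apart as fewer cells of a type or as less RNA per cell.

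Neurons of the fetal brain are born from radial glia, the dividing cells that line the ventricles, in part through intermediate progenitors that divide again before they differentiate. Towards birth the same progenitors turn from neurons to astrocytes and then to oligodendrocytes, while the neurons already born extend axons, form synapses and acquire their receptors and ion channels. The proteins of DNA replication and mitosis are made mainly in dividing cells, so that the abundance of their transcripts in whole tissue is a common measure of proliferation. Blood is also renewed in this period, when red cells of the yolk sac, which carry embryonic globins, give way to those of the fetal liver, which carry adult globins.

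The 6 libraries held 37191332 to 39759702 reads on genes on d15 and 29700746 to 30915744 on d17. Neuronal markers were present in each of them, and Tubb3, a neuronal tubulin, ranged from 572 to 1816 CPM. CPM are reads scaled to a common library size, by TMM over all 27 libraries. Xist, made from the inactive X chromosome, was at 2433 to 5439 CPM, and the sum of 4 Y-linked genes did not exceed 0.177 CPM. Several libraries stood apart from the others of their day. Against each gene's mean over the 6 libraries, the replicate 2 library of d17 had fewer reads on GC-rich and long transcripts (slopes -0.47 log2 per 10 points of GC and -0.19 per doubling of length). Replicate 3 of d17 had a weaker trend of this kind (-0.16 and -0.09), and the other 4 libraries had the opposite trend (0.12 to 0.18 and 0.06 to 0.08). Since the slopes are relative to that mean, both signs must occur, and they do not tell which libraries depart from an even coverage. Mitochondrially encoded transcripts made up 4.43% and 2.47% of the reads in replicates 2 and 3 of d17 and 1.21% to 1.53% in the other 4 libraries. In the AKR/J and Cav1-null libraries of d15 and d17 this share was 2.26% to 4.67%, and Tubb3 was at 650 to 1180 CPM. The C57BL/6J libraries of d15 and replicate 1 of d17 lay apart from these, with Tubb3 at 1663 to 1816 CPM. This difference coincides in part with day and strain and cannot be told apart from them. The 20 markers of meninges and connective tissue summed to 5541, 509 and 762 CPM on d15 and 1332, 175 and 289 CPM on d17, so that replicate 1 of either day was the highest. The 18 markers of cartilage and bone summed to 1297 CPM in replicate 1 of d15 and to 199.9 to 303 CPM in the other 5 libraries. The 23 Hox genes, which mark the hindbrain and spinal cord, summed to 1.76, 0.826 and 257 CPM on d15 and 11.6, 61.4 and 33.3 CPM on d17. Hoxa5 and Hoxb5 had no reads in replicates 1 and 2 of d15 and stood at 48.8 and 30.9 CPM in replicate 3. The part of these differences in the results was not tested beyond the values given without single libraries and after removal of the trend with GC content and length, which was chosen after seeing the data.

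**Figure D1:**
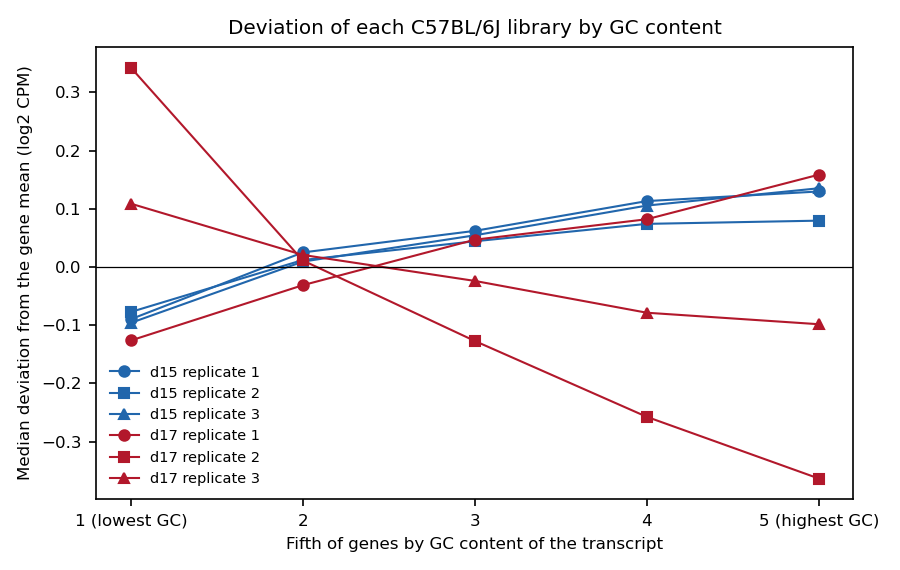
Median deviation of the genes of each library from their mean over the 6 libraries (vertical axis, log2 CPM), in 5 bins of genes by rising GC content of the transcript (horizontal axis). The d15 libraries are blue and the d17 libraries red. The line of d17 replicate 2 falls from 0.34 to -0.36, that of d17 replicate 3 from 0.11 to -0.10, and the other 4 lines rise.

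Between d15 and d17, 2594 genes (13.0% of those tested) passed an adjusted p under 0.05, of which 1484 (7.46%) were higher and 1110 (5.58%) lower on d17. The median change of the genes that rose was 2.38-fold and that of the genes that fell 1.89-fold, and 957 of the former and 479 of the latter changed at least 2-fold. Of the genes that rose, 1119 of 1484 had a lower mean on d12 than on d15, and 827 of the 1110 that fell had a higher mean on d12. The same shares over all genes were not computed, and the d15 libraries enter both intervals. Whether the changes continued those of the preceding days was therefore not tested. Rises made up 57.2% of the calls, and 68.4% with library sizes alone in place of TMM factors, with which the median over all genes shifted from 0.03 to 0.17. Genes in the lowest of 5 bins of GC content were called higher in 12.8% and lower in 3.01% of cases, with a median log2 fold change of 0.31, against 5.39%, 7.01% and -0.16 in the highest bin. With the trend removed, 3977 genes (20.0%) were called, 2159 higher (10.9%) and 1818 lower (9.14%), and the medians of the 5 bins lay between 0.02 and 0.04. Of the calls made without this step, 1370 of 1484 and 972 of 1110 were made again in the same direction. Single libraries decided how many genes passed. Leaving out d17 replicate 1 gave 6990 genes (33.2%, with 15.2% higher and 18.0% lower), leaving out replicate 2 gave 2797 (13.6%, with 7.41% and 6.22%) and leaving out replicate 3 gave 160 (0.767%, with 0.441% and 0.326%). Fits without d15 replicates 1, 2 and 3 called 363 (1.77%), 267 (1.29%) and 781 (3.79%), with 0.969%, 0.742% and 2.33% of all genes higher and 0.798%, 0.553% and 1.45% lower. The counts of list members given below for a fit stand against the shares of all genes called in that same fit. Of the 156 genes called and named here, 35 were still called without d17 replicate 3, 53 without d15 replicate 2, 64 without d15 replicate 1, 81 without d15 replicate 3, 153 without d17 replicate 2 and 155 without d17 replicate 1. None of the 156 changed its direction in these 6 fits or with library sizes alone. The libraries of the 2 days did not overlap in 2593 of the 2594 genes called, so that leaving out a single library could hardly turn a direction.

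**Figure D2:**
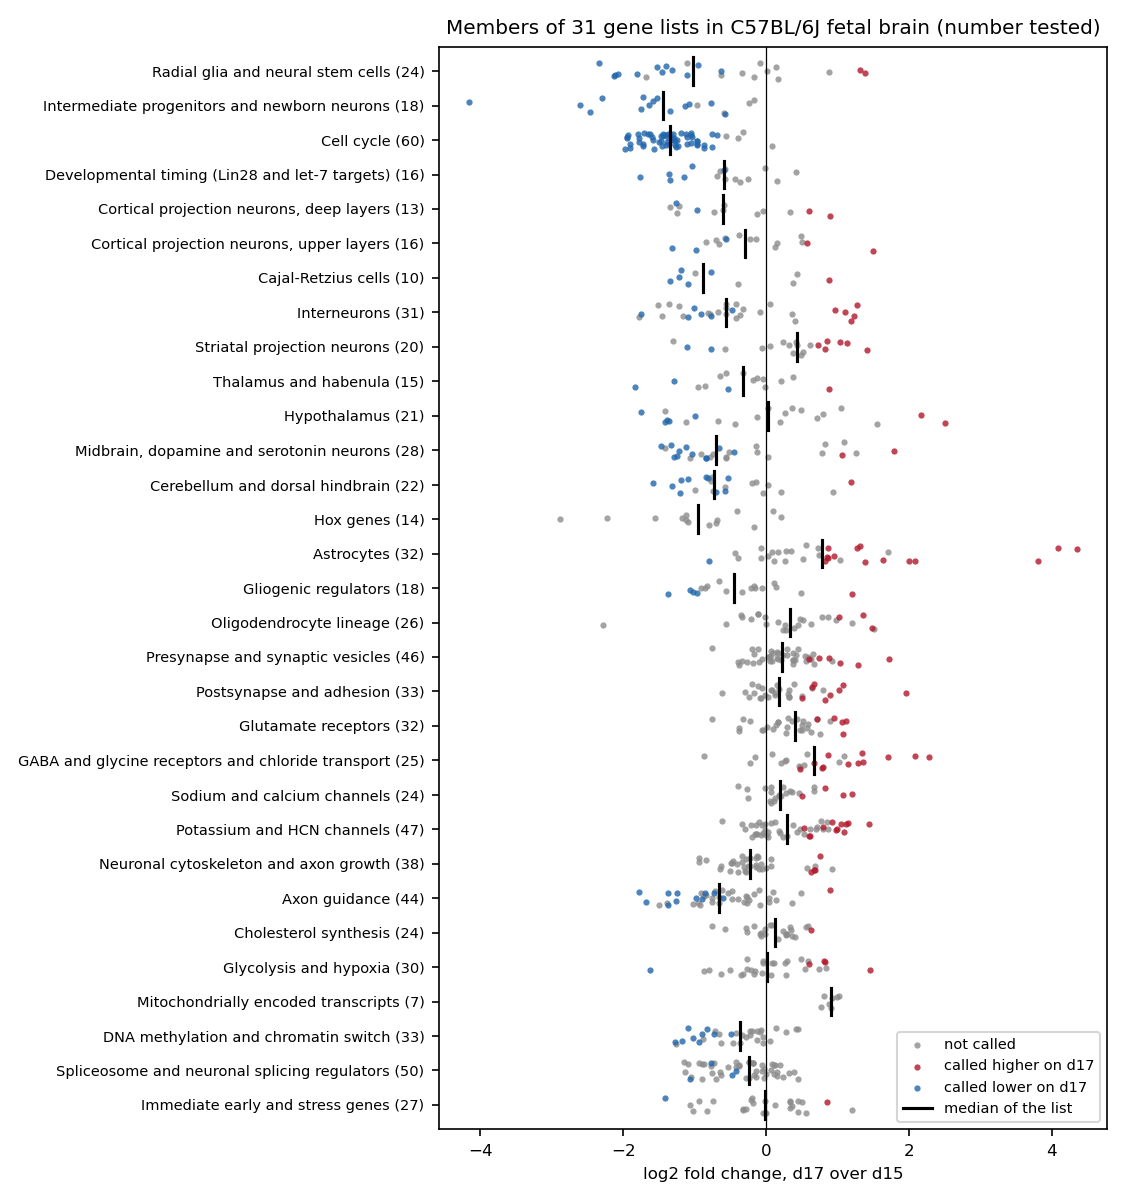
Log2 fold change from d15 to d17 (horizontal axis) of the tested members of 31 gene lists (rows, with the number tested), 1 point a gene, red for genes called higher, blue for genes called lower and grey for genes not called. Black bars are medians. Nearly all points of the cell cycle list are blue and left of 0, with a median of -1.34, and the red points of the astrocyte list reach 4.35.

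The members were described through 43 lists with 1071 genes, of which 4 were not in the table and 72 had too few reads to be tested, and a few genes stand on several lists. Most genes of the neurogenic progenitors fell. Of the 18 genes of intermediate progenitors and newborn neurons, all of which were tested, 14 fell and none rose, against 5.58% of all genes, and their median log2 fold change was -1.44 against 0.03 over all genes tested. Neurog2 (ENSMUSG00000027967, chromosome 3, 127426448 to 127429280 in GRCm39), the proneural factor that starts neurogenesis in the dorsal forebrain, had 114, 122 and 103 CPM in the d15 libraries and 22.2, 11.9 and 19.03 CPM in the d17 libraries (log2 fold change -2.61, SE 0.24, adjusted p = 0.00375). Its levels on d12 had been 169.7, 202 and 124 CPM, so that its mean had declined to d15 already, and fell 6.1-fold in the next 2 days, and the libraries of the 2 late days did not overlap, as in 42.3% of all genes tested. Eomes (ENSMUSG00000032446, chromosome 9, 118307280 to 118315200), the T-box factor that defines cortical intermediate progenitors, stood at 109, 115 and 102 CPM in the d15 libraries and 28.4, 14.98 and 20.3 CPM in the d17 libraries (log2 fold change -2.29, SE 0.24, adjusted p = 0.00477). Unlike Neurog2, it had been lower on d12 than on d15 (68.3, 103 and 25.7 CPM), and the 3 libraries of d17 were below each of the others but d12 replicate 3. Nhlh1, a helix-loop-helix factor of newborn neurons, had 31.3, 34.1 and 29.01 CPM in the d15 libraries and 6.26, 5.03 and 5.08 CPM in the d17 libraries (log2 fold change -2.46, SE 0.16, adjusted p = 0.00176). Its 3 libraries of d17 were close to each other, from 5.03 to 6.26 CPM. Neurog1, a relative of Neurog2, fell to between 0.199 and 0.432 CPM from 7.78, 5.75 and 5.28 CPM (log2 fold change -4.15 and adjusted p = 0.0035). The members with the most reads that did not pass were Elavl4, an RNA-binding protein of postmitotic neurons (log2 fold change -0.24, adjusted p = 0.249), and Unc5d, a netrin receptor of the subventricular zone (-0.17, adjusted p = 0.424). The number of members that fell was 7 without d17 replicate 3, 9, 8 and 9 without d15 replicates 1, 2 and 3, and 16 with the GC and length trend removed.

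Among 24 genes of radial glia and neural stem cells, 12 fell and 2 rose (median -1.03), against 5.58% and 7.46% of all genes. Sox3, a SoxB1 factor that keeps progenitors undifferentiated, had 50.1, 55.6 and 45.3 CPM in the d15 libraries and 17.3, 3.05 and 7.97 CPM in the d17 libraries (log2 fold change -2.34, SE 0.53, adjusted p = 0.0316). Gli3, a transcription factor of the hedgehog pathway that patterns the dorsal forebrain, had 83.6, 81.3 and 74.5 CPM in the d15 libraries and 24.7, 13.2 and 14.3 CPM in the d17 libraries (log2 fold change -2.13, SE 0.25, adjusted p = 0.00548). In both genes the highest d17 library was far below the lowest d15 library. Nes (ENSMUSG00000004891, chromosome 3, 87878385 to 87887758), which encodes the intermediate filament nestin of neural stem cells, was at 329, 371 and 315 CPM in the d15 libraries and 131, 36.04 and 61.02 CPM in the d17 libraries (log2 fold change -2.08, SE 0.44, adjusted p = 0.0254). Its lowest value, in d17 replicate 2, was that of the library with few reads on GC-rich transcripts, and with the trend removed the log2 fold change was -1.82 (adjusted p = 0.00305). Dmrta2, a doublesex-related factor of cortical progenitors, changed by -2.12 (SE 0.40, adjusted p = 0.0194). The 2 members that rose, picked after their values were seen, were Fabp7 (brain lipid-binding protein; 282, 339 and 356 CPM on d15 and 468, 1136 and 729.8 on d17) and Fam107a, a gene of outer radial glia (2.19, 1.68 and 1.71 CPM on d15 and 4.67, 3.76 and 5.52 on d17). Ptprz1, a receptor phosphatase, and Tnc, the matrix protein tenascin C, had the most reads of the members that did not pass, with log2 fold changes of 0.01 (adjusted p = 0.98) and -0.17 (adjusted p = 0.694). The 12 falls were 15 with the trend removed, 16 without d17 replicate 1 (a fit in which 18.0% of all genes fell), 15 without replicate 2 of that day and none without its replicate 3, and without d15 replicates 1, 2 and 3 they were 3, 2 and 4. In the fits without any 1 of the d15 replicates or d17 replicate 3, neither of the 2 rises passed.

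**Figure D3:**
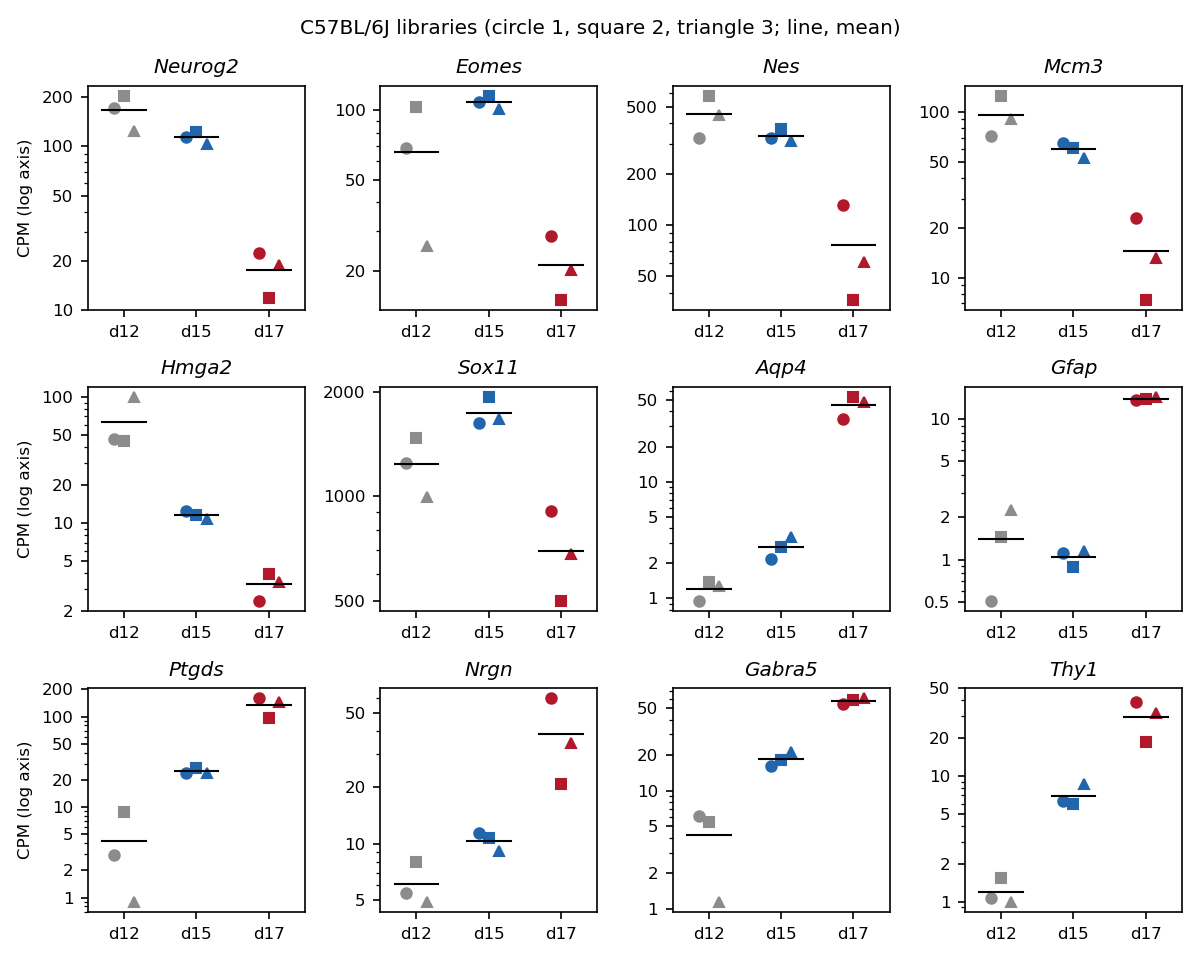
CPM on a log axis (vertical) in each C57BL/6J library of d12 (grey), d15 (blue) and d17 (red) for 12 genes, 1 panel each, with replicates 1, 2 and 3 as circle, square and triangle and the mean as a line. The d15 and d17 points do not overlap in any panel, for which some of these genes were chosen. The same holds in 2593 of the 2594 called genes and in 42.3% of all genes tested. Neurog2, Eomes, Nes, Mcm3, Hmga2 and Sox11 are lower on d17, and Aqp4, Gfap, Ptgds, Nrgn, Gabra5 and Thy1 are higher.

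The genes of the cell cycle fell nearly as a whole. Of 60 genes for DNA replication, mitosis and their regulation, all tested, 56 fell and none rose, against 5.58% of all genes that fell, with a median log2 fold change of -1.34. The falls ranged from -1.98 to -0.69. Mcm3 (ENSMUSG00000041859, chromosome 1, 20870791 to 20890536), a subunit of the replicative helicase, had 65.3, 60.9 and 53.04 CPM in the d15 libraries and 22.9, 7.31 and 13.1 CPM in the d17 libraries (log2 fold change -1.98, SE 0.38, adjusted p = 0.0198). Cdc20, an activator of the anaphase-promoting complex, had 50.5, 49.8 and 41.7 CPM in the d15 libraries and 15.9, 5.86 and 13.8 CPM in the d17 libraries (log2 fold change -1.93, SE 0.35, adjusted p = 0.0163). For Mcm3 and Cdc20 the d12 levels had been higher still, at 71.5, 124 and 89.98 CPM for Mcm3 and 78.2, 93.9 and 89.3 CPM for Cdc20. Uhrf1, which couples DNA methylation to replication, changed by -1.94 (SE 0.34, adjusted p = 0.0157), and E2f8, a repressor of the E2F family, by -1.95 (SE 0.25, adjusted p = 0.00697). Pcna, the sliding clamp of DNA polymerase, had 96.98, 80.5 and 70.7 CPM in the d15 libraries and 57.2, 64.6 and 69.02 CPM in the d17 libraries, a difference that did not pass (log2 fold change -0.32, adjusted p = 0.193). Pcna was called lower with the trend removed (-0.58, adjusted p = 0.0326). Ccne2, the cyclin of the entry into S phase, did not pass and had 15.2, 13.7 and 14.2 CPM in the d15 libraries and 11.96, 18.96 and 12.95 CPM in the d17 libraries (0.09, adjusted p = 0.782). With the trend removed, and without d17 replicate 2, 56 members fell as well. The count was 57 without d17 replicate 1, but 12 without d17 replicate 3, where 0.326% of all genes fell, and 27, 20 and 42 without d15 replicates 1, 2 and 3.

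Many promoters of genes for the G2 phase and mitosis are known to hold a cell cycle homology region (CHR), to which the DREAM complex binds, and CCAAT boxes, to which NF-Y binds, so that the promoters of the list were searched for both. In RefSeq promoters of the mouse (GRCm38.p6), which run from 250 bases before to 50 after the start, 48 of the 60 genes had an entry, with 53 promoters. The CHR, taken as TTTGAA or TTCGAA on either strand, was present in 28 of the 53 (52.8%) and in 19.2% of all 32851 promoters. CCAAT on either strand was present in 41 (77.4%) and in 37.4% of all, and both motifs in 25 (47.2%) and in 7.52% of all. These shares describe letters within 300 bases, were not tested, and say nothing of binding. The promoters of the 4 genes with the largest falls among those that hold both motifs are shown from 5′ to 3′ along the gene, with every CHR and CCAAT match on either strand in capitals.
E2f8 (chr7:48881547-48881846, minus strand): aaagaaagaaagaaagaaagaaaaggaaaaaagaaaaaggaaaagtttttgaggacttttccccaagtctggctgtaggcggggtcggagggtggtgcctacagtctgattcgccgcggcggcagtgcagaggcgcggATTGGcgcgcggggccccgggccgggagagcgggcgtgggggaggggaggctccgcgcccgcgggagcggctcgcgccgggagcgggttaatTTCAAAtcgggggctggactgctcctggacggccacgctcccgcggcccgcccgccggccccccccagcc
Cdc20 (chr4:118437294-118437593, minus strand): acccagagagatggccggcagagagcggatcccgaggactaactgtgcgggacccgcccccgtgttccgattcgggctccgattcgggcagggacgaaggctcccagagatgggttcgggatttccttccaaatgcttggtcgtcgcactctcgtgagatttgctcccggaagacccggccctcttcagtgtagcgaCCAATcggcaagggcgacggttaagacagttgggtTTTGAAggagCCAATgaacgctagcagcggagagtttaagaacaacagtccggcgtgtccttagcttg
Mcm2 (chr6:88898731-88899030, minus strand): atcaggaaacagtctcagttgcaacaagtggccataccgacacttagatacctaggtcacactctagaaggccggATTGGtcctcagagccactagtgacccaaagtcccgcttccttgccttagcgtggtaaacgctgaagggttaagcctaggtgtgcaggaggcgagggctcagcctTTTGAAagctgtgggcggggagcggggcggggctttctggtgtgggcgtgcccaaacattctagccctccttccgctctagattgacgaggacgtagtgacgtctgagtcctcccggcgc
Bub1b (chr2:118597961-118598260, plus strand): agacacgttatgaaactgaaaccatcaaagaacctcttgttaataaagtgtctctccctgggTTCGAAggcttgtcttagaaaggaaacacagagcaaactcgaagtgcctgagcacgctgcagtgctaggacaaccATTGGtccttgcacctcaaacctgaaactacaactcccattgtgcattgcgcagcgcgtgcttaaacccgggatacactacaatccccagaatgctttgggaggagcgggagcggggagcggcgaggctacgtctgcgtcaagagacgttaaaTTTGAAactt
Cdc20 holds 2 CCAAT boxes and 1 CHR, Bub1b 2 CHRs and 1 CCAAT box, and E2f8 and Mcm2 1 of each. The log2 fold changes of these genes were -1.95 (E2f8), -1.93 (Cdc20), -1.91 (Mcm2, a helicase subunit) and -1.91 (Bub1b, a kinase of the spindle checkpoint).

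Genes of the Lin28 and let-7 pathway, in which the RNA-binding protein Lin28 blocks the maturation of the microRNA let-7 and so keeps growth genes of early progenitors active, were represented by 16 members. Of these 6 fell and none rose, 37.5% against 5.58% of all genes that fell (median -0.59). Hmga2, a chromatin protein of young neural stem cells, went from 46.3, 44.6 and 99.4 CPM on d12 to 12.5, 11.7 and 10.7 on d15 and 2.42, 3.95 and 3.44 on d17 (log2 fold change -1.77, SE 0.22, adjusted p = 0.00601). Igf2bp1, which binds mRNAs of growth factors, had 73.05, 76.1 and 74.6 CPM in the d15 libraries and 29.2, 29.4 and 25.2 CPM in the d17 libraries (log2 fold change -1.36, SE 0.11, adjusted p = 0.0035). Its relative Igf2bp2 (-1.35, adjusted p = 0.00494) and the zinc finger gene Plagl2 (-1.15, adjusted p = 0.0162) fell by similar amounts. Mycn and Hmga1 had the most reads of the members that did not pass (-0.58, adjusted p = 0.221, and -0.57, adjusted p = 0.0997). The 6 falls became 10 without d17 replicate 1 and 3 without d17 replicate 3, and they were 4 without any 1 of the d15 replicates.

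In the lists of cortical neurons rises and falls were mixed, with 30.8% of the deep-layer and 31.25% of the upper-layer genes called against 13.0% of all genes. In the deep layers of the cortex (13 of 15 genes tested, 2 higher and 2 lower, median -0.60), Sox5 had 196, 208 and 178 CPM in the d15 libraries and 91.7, 63.5 and 76.4 CPM in the d17 libraries (log2 fold change -1.26, SE 0.17, adjusted p = 0.00798). Fezf2, which with Sox5 specifies neurons that project below the cortex, was at 81.4, 81.97 and 76.5 CPM in the d15 libraries and 42.5, 35.98 and 39.2 CPM in the d17 libraries (log2 fold change -0.96, SE 0.12, adjusted p = 0.00642). Both factors had stood lower on d12 than on d15, Sox5 at 80.8, 96.6 and 36.7 CPM. Crym, a thyroid hormone-binding protein of layers that project below the cortex (0.89, adjusted p = 0.0115), and Ldb2, a LIM domain-binding cofactor (0.59, adjusted p = 0.0285), rose. Bcl11b and Tbr1, which specify deep layers, spread widely on d17 (287, 57.4 and 128 CPM for Bcl11b, 164, 35.9 and 63.7 CPM for Tbr1) and did not pass (adjusted p = 0.141 and 0.107). Without d17 replicate 1, 8 of the deep-layer genes were called lower, and without d17 replicate 3 none was called. The rises were 1, 0 and 0 and the falls 2, 1 and 2 without d15 replicates 1, 2 and 3. In the upper layers (16 genes, 2 higher and 3 lower, median -0.30), Inhba, a subunit of activin, had 5.24, 4.34 and 5.84 CPM in the d15 libraries and 13.5, 14.03 and 14.2 CPM in the d17 libraries (log2 fold change 1.497, SE 0.17, adjusted p = 0.0052), and Lhx2, a LIM homeodomain factor shared with progenitors, had 235, 258 and 212 CPM in the d15 libraries and 117, 68.6 and 84.7 CPM in the d17 libraries (log2 fold change -1.32, SE 0.22, adjusted p = 0.0132). Epha3, an ephrin receptor (-0.98, adjusted p = 0.0107), fell and Ptprk, a receptor phosphatase (0.57, adjusted p = 0.0308), rose. The upper-layer falls were 9 without d17 replicate 1 and 0 without d17 replicate 3 or d15 replicates 1 or 2, and 1 rise remained in each of the fits without d17 replicate 3 or a d15 replicate.

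Cajal-Retzius cells, the earliest neurons of the cortical surface, were represented by 10 genes, of which 5 fell and 1 rose, against 5.58% and 7.46% of all genes. Ebf3 had 201, 216 and 260.1 CPM in the d15 libraries and 99.1, 76.1 and 78.8 CPM in the d17 libraries (log2 fold change -1.35, SE 0.17, adjusted p = 0.00659). Trp73, the p53 relative p73 that these cells need, had 18.1, 20.1 and 17.4 CPM in the d15 libraries and 11.1, 5.06 and 6.63 CPM in the d17 libraries (log2 fold change -1.22, SE 0.29, adjusted p = 0.0355). Lhx5 (-1.19, adjusted p = 0.0118) and Lhx1 (-1.09, adjusted p = 0.00548) fell too, but Reln, the secreted signal of the cells, had 374, 387 and 379 CPM in the d15 libraries and 308, 124 and 115 CPM in the d17 libraries and did not pass (-0.99, adjusted p = 0.113). Its 3 libraries of d17 spread widely, with replicate 1 the highest. Of 31 interneuron genes tested, 5 rose and 6 fell (median -0.56), 35.5% called against 13.0% of all genes. Nkx2-1, the factor of the medial ganglionic eminence where many interneurons are born, had 51.2, 55.9 and 47.5 CPM in the d15 libraries and 21.1, 9.99 and 12.9 CPM in the d17 libraries (log2 fold change -1.75, SE 0.27, adjusted p = 0.0108), and among the rises were the calcium buffer Calb1 (20.1, 22.4 and 20.1 CPM on d15 and 37.7, 52.8 and 46.3 on d17, log2 fold change 1.19, SE 0.14, adjusted p = 0.00601), the neuropeptide Cck (1.23, adjusted p = 0.0209) and the serotonin receptor Htr3a (1.28, adjusted p = 0.0248). Gad1, which makes GABA, had a log2 fold change of 0.05 (adjusted p = 0.883). The interneuron falls were 13 with the trend removed, 20 without d17 replicate 1 and 9 without d17 replicate 2, and no member was called without d17 replicate 3. Without d15 replicates 1, 2 and 3, the interneuron rises were 1, 1 and 3 and the falls 0, 0 and 1. The falls of the Cajal-Retzius genes were 3, 2 and 3 in those fits, and they were 7 without d17 replicate 1 and 0 without d17 replicate 3.

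Of 20 genes of striatal projection neurons 6 rose and 2 fell (median 0.43), against 7.46% and 5.58% of all genes. Arpp21, a phosphoprotein of dopamine-responsive neurons, had 40.7, 40.7 and 46.4 CPM in the d15 libraries and 110.5, 111 and 103 CPM in the d17 libraries (log2 fold change 1.41, SE 0.12, adjusted p = 0.0035), with 3 nearly equal libraries of d17. Rxrg, a retinoid receptor, had 8.43, 10.6 and 10.1 CPM in the d15 libraries and 22.7, 11.7 and 22.6 CPM in the d17 libraries (log2 fold change 1.04, SE 0.28, adjusted p = 0.0474). Gpr6, a receptor of striatal neurons of the indirect pathway, also rose (1.13, adjusted p = 0.0283), and Ebf1, a factor of the direct pathway, fell from 88.1, 85.4 and 106 to 47.9, 35.1 and 41.1 CPM (adjusted p = 0.00971). The rises and falls were equal in number without d17 replicate 1, at 4 each (15.2% of all genes rose and 18.0% fell in that fit), and without d15 replicate 1 or 2, at 1 each. Without d17 replicate 2, 10 rose and 2 fell, without d15 replicate 3, 2 rose and 1 fell, and without d17 replicate 3, 1 rose and none fell.

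Most genes of the diencephalon, midbrain and hindbrain that passed the test fell, and among those that rose were neuropeptides and enzymes. Of all genes tested 5.58% fell and 7.46% rose. In the thalamus and habenula list 3 of 15 genes fell and 1 rose. Pou4f1, a POU factor of habenular, midbrain and sensory neurons, had 36.9, 46.4 and 54.2 CPM in the d15 libraries and 13.9, 10.1 and 12.7 CPM in the d17 libraries (log2 fold change -1.84, SE 0.20, adjusted p = 0.00485). In the hypothalamus list (21 of 26 tested) 5 fell and 2 rose, among them Otp, a factor of neuroendocrine neurons, with 32.1, 34.6 and 39.98 CPM in the d15 libraries and 18.8, 7.15 and 12.1 CPM in the d17 libraries (log2 fold change -1.42, SE 0.33, adjusted p = 0.0325). The 2 rises were neuropeptides. Avp, vasopressin, had 0.891, 1.36 and 1.33 CPM in the d15 libraries and 7.78, 2.77 and 4.74 CPM in the d17 libraries (log2 fold change 2.17, SE 0.41, adjusted p = 0.0198), and Nts, neurotensin, had 7.08, 7.41 and 4.69 CPM in the d15 libraries and 19.7, 47.8 and 36.8 CPM in the d17 libraries (log2 fold change 2.498, SE 0.34, adjusted p = 0.0076). Of 28 genes of the midbrain and of dopamine and serotonin neurons, 11 fell and 2 rose (median -0.71). Pax7 (-1.47, adjusted p = 0.0372), Gata2 (-1.33, adjusted p = 0.017) and Pax5 (-1.28, adjusted p = 0.0391), which pattern the midbrain, fell. Aldh1a1, the retinaldehyde dehydrogenase of a class of dopamine neurons, had 3.89, 3.48 and 2.45 CPM in the d15 libraries and 9.47, 11.3 and 11.99 CPM in the d17 libraries (log2 fold change 1.80, SE 0.23, adjusted p = 0.00654). In the cerebellum and dorsal hindbrain (22 of 24 tested), 10 fell and 1 rose, among them Skor2 of Purkinje cells (7.46, 8.62 and 11.8 CPM on d15 and 4.74, 2.56 and 1.58 on d17, log2 fold change -1.59, SE 0.40, adjusted p = 0.0407), Barhl2 (-1.31, adjusted p = 0.01) and Ebf2 (-1.21, adjusted p = 0.00601). None of the falls of the midbrain list was called without any 1 of the d15 replicates or d17 replicate 3, and the 10 falls of the cerebellum list were 4, 2 and 3 without d15 replicates 1, 2 and 3 and none without d17 replicate 3. Without d17 replicate 1, 16 midbrain, 12 cerebellar, 7 hypothalamic and 7 thalamic genes fell. Of the hypothalamic falls, 0, 0 and 2 passed without d15 replicates 1, 2 and 3 and none without d17 replicate 3. The thalamic falls were 1, 1 and 2 without d15 replicates 1, 2 and 3 and 1 without d17 replicate 3, and the thalamic rise passed in none of these 4 fits. The hypothalamic rises were 1 without any 1 of the d15 replicates and 0 without d17 replicate 3, and the midbrain rises were 1, 1 and 2 without d15 replicates 1, 2 and 3, 4 without d17 replicate 2 and 0 without d17 replicate 3. None of the 14 Hox genes tested passed in edgeR's quasi-likelihood test or with DESeq2, nor had any an unadjusted p under 0.05, and 9 of the 23 did not have enough reads. Their level followed d15 replicate 3, without which 6 of them were called higher on d17.

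Astrocyte genes were called higher more often than genes at large. Of 32 such genes 14 rose and 1 fell, against 7.46% of all genes that rose, with a median of 0.78. Their summed level did not rise in each library, with 2121, 2141 and 2443 CPM on d15 and 3493, 1943 and 2750 CPM on d17. Aqp4 (ENSMUSG00000024411), the water channel of astrocytic endfeet, was at 0.947, 1.39 and 1.27 CPM on d12, and it had 2.19, 2.77 and 3.36 CPM in the d15 libraries and 34.5, 52.9 and 48.5 CPM in the d17 libraries (log2 fold change 4.09, SE 0.23, adjusted p = 0.000784, 17.02-fold). Gfap (ENSMUSG00000020932, chromosome 11, 102778159 to 102791738), the intermediate filament of astrocytes, stood near 1 CPM on d15 (1.11, 0.885 and 1.15) and at 13.8, 13.97 and 14.3 CPM on d17 (log2 fold change 3.801, SE 0.19, adjusted p = 0.000784). The 3 libraries of d17, which differed in GC trend, were close to each other. Agt, angiotensinogen, which the brain makes in astrocytes, had 0.27, 0.118 and 0.236 CPM in the d15 libraries and 5.47, 2.47 and 4.46 CPM in the d17 libraries (log2 fold change 4.35, SE 0.46, adjusted p = 0.00477). Dio2, the deiodinase that activates thyroid hormone, also rose (2.09, adjusted p = 0.0129). Sparcl1, a secreted synaptogenic protein, had 133, 115 and 179 CPM in the d15 libraries and 345, 179 and 312 CPM in the d17 libraries, which just failed the threshold (1.03, adjusted p = 0.0536) and passed with the trend removed (adjusted p = 0.0277). Cpe, carboxypeptidase E, did not pass (-0.07, adjusted p = 0.906), and Fgfr3, a growth factor receptor of astrocyte precursors named after its values were seen, fell from 98.2, 95.2 and 97.4 to 60.5, 50.4 and 48.7 CPM (adjusted p = 0.012). The 14 rises were 17 with the trend removed or without d17 replicate 2, but 4 in the fit without d17 replicate 3 and 6, 4 and 8 without d15 replicates 1, 2 and 3.

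Among 18 regulators of gliogenesis, most of them transcription factors, 4 fell and 1 rose (median -0.45), against 5.58% and 7.46% of all genes. Nfib (ENSMUSG00000008575, chromosome 4, 82208410 to 82623987), a nuclear factor I gene, was at 343, 453 and 141 CPM on d12, and it had 746, 806 and 692 CPM in the d15 libraries and 411, 295 and 345 CPM in the d17 libraries (log2 fold change -1.03, SE 0.18, adjusted p = 0.0157). Sox9, which acts with nuclear factor I in the switch to glia, had 96.1, 100.03 and 93.96 CPM in the d15 libraries and 57.7, 20.5 and 28.9 CPM in the d17 libraries (log2 fold change -1.37, SE 0.35, adjusted p = 0.0435). Zfp36l1, an RNA-decay factor of progenitors, fell by 1.06 on the log2 scale (adjusted p = 0.026), and Etv4, a target of growth factor signals, rose (1.21, adjusted p = 0.0124). Nfix and Zbtb20 did not pass (-0.86, adjusted p = 0.18, and -0.06, adjusted p = 0.821). Of the 26 genes of the oligodendrocyte lineage 3 rose and none fell (11.5% called against 13.0% of all genes), and 8 rose with the trend removed. Gpr17, a receptor of differentiating precursors, had 5.16, 7.23 and 10.6 CPM in the d15 libraries and 24.7, 12.5 and 19.2 CPM in the d17 libraries (log2 fold change 1.36, SE 0.34, adjusted p = 0.0396). Lhfpl3 had 10.5, 9.83 and 11.3 CPM in the d15 libraries and 24.1, 31.05 and 29.9 CPM in the d17 libraries (log2 fold change 1.49, SE 0.15, adjusted p = 0.00442), and Opcml, an adhesion molecule, rose from 55.9, 67.7 and 68.3 to 132, 117 and 124 CPM (adjusted p = 0.00715). The 4 falls of the gliogenic list were 9 without d17 replicate 1 and 0 without d17 replicate 3 or any 1 of the d15 replicates, and the 3 rises of the oligodendrocyte list were 6 in the fits that left out d17 replicate 1, where 2 members fell, or 2, 1 when its replicate 3 was left out, and 1, 1 and 2 without d15 replicates 1, 2 and 3.

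Inhibitory receptor genes were the synaptic group with the largest share of calls. Of 25 tested genes for GABA and glycine receptors and chloride transport, 12 rose and none fell (median 0.67), against 7.46% of all genes that rose. Gabra5 (ENSMUSG00000055078, chromosome 7, 57055164 to 57240831), the alpha 5 subunit of extrasynaptic GABA receptors, went from 6.09, 5.42 and 1.14 CPM on d12 to 16.1, 18.2 and 21.5 on d15 and 53.9, 59.2 and 60.7 on d17 (log2 fold change 1.70, SE 0.14, adjusted p = 0.0035). Gabrg1, a gamma subunit, had 9.94, 10.4 and 11.7 CPM in the d15 libraries and 27.8, 60.2 and 42.6 CPM in the d17 libraries (log2 fold change 2.08, SE 0.26, adjusted p = 0.00642). Glra3, the alpha 3 subunit of glycine receptors, rose from 2.65, 1.83 and 2.48 to 7.15, 15.1 and 10.5 CPM (log2 fold change 2.29, SE 0.30, adjusted p = 0.00755), and Gabrb1, a beta subunit, by 1.35 (adjusted p = 0.00515). In Gabrg1 and Glra3 d17 replicate 2, with few reads on GC-rich transcripts, was the highest, and with the trend removed their log2 fold changes were 1.61 and 1.90 (adjusted p = 0.000773 and 0.00148). Gabbr1, a metabotropic GABA receptor, had many reads and did not pass (-0.22, adjusted p = 0.447). The 12 rises were 15 with the trend removed, where 10.9% of all genes rose, 5 without d17 replicate 3 and 7, 7 and 8 without d15 replicates 1, 2 and 3.

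Fewer members of the other synaptic lists were called. Of 46 genes of the presynapse 6 rose (13.0%), of 33 of the postsynapse 8 (24.2%) and of 32 for glutamate receptors 5 (15.6%), against 7.46% of all genes. None of these lists held a gene that fell, against 5.58% of all genes. At the presynapse, Unc13c, a priming factor of synaptic vesicles (1.28, adjusted p = 0.00654), Synpr, a vesicle protein (1.03, adjusted p = 0.0153), and Napb, an adaptor that recycles SNARE proteins (0.87, adjusted p = 0.019), rose. At the postsynapse, Nrgn, neurogranin, had 11.4, 10.7 and 9.08 CPM in the d15 libraries and 59.8, 20.9 and 34.4 CPM in the d17 libraries (log2 fold change 1.96, SE 0.37, adjusted p = 0.0187), with replicate 1 the highest on d17. Dlg2, a scaffold protein of the synapse, had 119, 130.01 and 138 CPM in the d15 libraries and 254, 202 and 230.2 CPM in the d17 libraries (log2 fold change 0.89, SE 0.15, adjusted p = 0.0133), Lrrtm2, a partner of neurexins, rose by 1.08 (adjusted p = 0.0163) and Cntn1, contactin 1, by 1.02 (adjusted p = 0.0421). Among glutamate receptors, Grm5 had 73.2, 83.98 and 113 CPM in the d15 libraries and 222, 159 and 180.5 CPM in the d17 libraries (log2 fold change 1.12, SE 0.21, adjusted p = 0.0191), Grin2a, the NMDA receptor subunit that comes up late in development, had 8.13, 8.5 and 9.55 CPM in the d15 libraries and 17.1, 22.3 and 13.2 CPM in the d17 libraries (log2 fold change 1.06, SE 0.20, adjusted p = 0.02), and Grm3 (1.08, adjusted p = 0.0106) and Gria4 (0.94, adjusted p = 0.0234) rose. Gria2 and Grin2b, the glutamate receptor genes with the most reads among those not called, had changes of less than 1 on the log2 scale (0.51, adjusted p = 0.16, and 0.17, adjusted p = 0.709) and the same held for Nrxn2 (-0.38, adjusted p = 0.568), Rab3c (0.17, adjusted p = 0.481), Shank1 (-0.12, adjusted p = 0.739) and Nlgn2 (-0.61, adjusted p = 0.182). With the trend removed, the rises were 16, 14 and 18 in the 3 lists, against 10.9% of all genes in that fit, and none fell. Without d17 replicate 1, 9, 11 and 7 members rose and 7, 3 and 4 fell. Without d17 replicate 2 the rises were 12, 11 and 11, and without d17 replicate 3 they were 1, 0 and 0. The counts without d15 replicate 1 were 2, 0 and 0, without replicate 2 again 2, 0 and 0, and without replicate 3 they were 3, 0 and 2.

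Of 47 potassium and HCN channel genes 12 rose (25.5%) and none fell, and of 24 sodium and calcium channel genes 4 rose (16.7%) and none fell. Of all genes 7.46% rose, and 13.0% were called in either direction. Kcnq5, a subunit of the M-current channels, had 11.99, 10.3 and 11.9 CPM in the d15 libraries and 29.2, 17.7 and 22.3 CPM in the d17 libraries (log2 fold change 1.08, SE 0.21, adjusted p = 0.0214), and Kcns2 (1.14, adjusted p = 0.0167) and the accessory subunit Kcnip2 (1.11, adjusted p = 0.0146) rose as well. Kcnq3 had many reads and did not pass (-0.29, adjusted p = 0.224). Scn1a had 34.96, 38.8 and 45.5 CPM in the d15 libraries and 59.6, 107 and 74.7 CPM in the d17 libraries (log2 fold change 1.07, SE 0.21, adjusted p = 0.022), and Scn2a, which precedes it in development, had 98.2, 110.4 and 117 CPM in the d15 libraries and 187, 194 and 175 CPM in the d17 libraries (log2 fold change 0.83, SE 0.13, adjusted p = 0.0103). Scn2b, an auxiliary subunit of sodium channels, rose (0.50, adjusted p = 0.047), and the calcium channel genes Cacna1e (0.34, adjusted p = 0.202) and Cacna1g (0.06, adjusted p = 0.817) did not pass. With the trend removed, 19 potassium and 10 sodium or calcium channel genes rose, without d17 replicate 1 they were 13 and 7 with 2 and 3 falls, and without d17 replicate 3 or d15 replicate 1 or 2 none passed. Without d15 replicate 3 the rises were 5 and 2.

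Of 44 genes that guide axons 11 fell and 1 rose (median -0.66), against 5.58% and 7.46% of all genes. Dcc, the netrin receptor, had 323, 365 and 321 CPM in the d15 libraries and 143, 72.3 and 84.7 CPM in the d17 libraries (log2 fold change -1.68, SE 0.27, adjusted p = 0.0117). Efnb1, an ephrin ligand of progenitors, had 159, 154 and 137 CPM in the d15 libraries and 71.8, 16.9 and 35.7 CPM in the d17 libraries (log2 fold change -1.79, SE 0.46, adjusted p = 0.0443). Draxin, a repellent of commissural axons (-1.37, adjusted p = 0.0244), and Sema5a, a semaphorin (-1.38, adjusted p = 0.0231), fell too, and the plexins Plxna2 and Plxna1 did not pass (-0.92, adjusted p = 0.0607, and -0.76, adjusted p = 0.214), of which Plxna2 was called lower with the trend removed (adjusted p = 0.0199). Of 38 genes of the neuronal cytoskeleton and axon growth 4 rose and none fell, 10.5% called against 13.0% of all genes, and the median of the list was -0.23. Gap43 (ENSMUSG00000047261, chromosome 16, 42068805 to 42161086), the growth-associated protein of growth cones, had 456, 489.7 and 517 CPM in the d15 libraries and 721, 652 and 797 CPM in the d17 libraries (log2 fold change 0.63, SE 0.16, adjusted p = 0.0419), and Stmn2, a regulator of microtubules in growing axons, had 653, 741 and 809 CPM in the d15 libraries and 1177, 1138 and 1238 CPM in the d17 libraries (log2 fold change 0.75, SE 0.16, adjusted p = 0.027). The d17 libraries of Stmn2 lay between 1138 and 1238 CPM, whereas those of Map1b, the member with the most reads among those not called, spread from 904 to 3278 CPM and gave a log2 fold change of -0.84 (adjusted p = 0.228). Stmn4 (0.68, adjusted p = 0.0347) and Sptbn4, a spectrin of the axon initial segment (0.68, adjusted p = 0.0337), made up the rises, and Tubb5 did not pass (-0.48, adjusted p = 0.267). Leaving out d17 replicate 1, 34 guidance genes and 16 cytoskeletal genes were called lower, against 18.0% of all genes. The 11 guidance falls were 1, 0 and 3 without d15 replicates 1, 2 and 3 and 0 without d17 replicate 3, and the 4 cytoskeletal rises were 7 with the trend removed, 6 without d17 replicate 1 or 2, 1 without d15 replicate 3 and 0 in the other fits without a library.

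Of 33 genes of DNA methylation and of subunit exchange in chromatin complexes, 9 fell and none rose, against 5.58% of all genes that fell. Chd4, the remodeller of the NuRD complex, had 640.4, 664 and 597 CPM in the d15 libraries and 362, 167 and 221 CPM in the d17 libraries (log2 fold change -1.27, SE 0.29, adjusted p = 0.0306). Actl6a, the BAF subunit that neural progenitors use before neurons replace it with Actl6b, had 50.1, 51.6 and 43.7 CPM in the d15 libraries and 23.98, 19.4 and 21.7 CPM in the d17 libraries (log2 fold change -1.10, SE 0.14, adjusted p = 0.00667). Smarcc1, another BAF subunit (-1.17, adjusted p = 0.0343), and Cbx2, a Polycomb subunit (-1.02, adjusted p = 0.00486), fell, and Chd3 and Smarcc2 did not pass (-0.63, adjusted p = 0.141, and -0.72, adjusted p = 0.0909). Of 50 splicing genes 4 fell and none rose (8.0%, against 5.58% of all genes that fell). Ptbp1, a repressor of neuronal exons that progenitors express, had 139.6, 118 and 114 CPM in the d15 libraries and 71.2, 45.5 and 53.9 CPM in the d17 libraries (log2 fold change -1.06, SE 0.20, adjusted p = 0.018), and Srrm4, an activator of neuronal microexons, fell from 239, 259 and 235 to 164, 133 and 114 CPM (log2 fold change -0.77, SE 0.17, adjusted p = 0.0264). With the trend removed Srrm4 no longer passed (adjusted p = 0.0655), and 18 splicing genes fell. Prpf31 (-0.48, adjusted p = 0.0299) and Prpf4 (-0.42, adjusted p = 0.0482), subunits of the spliceosome, fell by less than 1 on the log2 scale, and Rbfox2 and Celf2 did not pass (adjusted p = 0.294 and 0.841). The chromatin falls were 19 without d17 replicate 1, but 1 in the fit without d17 replicate 3 and 3, 2 and 4 without d15 replicates 1, 2 and 3. Of the splicing genes, 23 fell and 3 rose without d17 replicate 1, 6 fell without d17 replicate 2, and none was called without d17 replicate 3 or any 1 of the d15 replicates.

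Of 30 genes of glycolysis and hypoxia 4 rose and 1 fell, 16.7% called against 13.0% of all genes. Pfkp (ENSMUSG00000021196, chromosome 13, 6629798 to 6698970), the platelet form of phosphofructokinase, had 422, 491 and 544 CPM in the d15 libraries and 864, 1882 and 1114 CPM in the d17 libraries (log2 fold change 1.46, SE 0.29, adjusted p = 0.0215), with the highest level in d17 replicate 2. Hk2, the hexokinase of proliferating cells, had 17.7, 14.7 and 14.2 CPM in the d15 libraries and 6.23, 3.45 and 4.8 CPM in the d17 libraries (log2 fold change -1.62, SE 0.25, adjusted p = 0.0107). Eno2, the neuronal enolase (0.83, adjusted p = 0.0282), and Bnip3, a mitochondrial protein induced by hypoxia (0.80, adjusted p = 0.026), rose, and Gapdh and Pkm did not pass (-0.35, adjusted p = 0.319, and -0.80, adjusted p = 0.099), though Pkm was called lower with the trend removed (adjusted p = 0.0348). Of 24 genes of cholesterol synthesis, Msmo1, a sterol oxidase, alone rose (60.03, 63.9 and 71.7 CPM on d15 and 85.8, 105 and 99.2 on d17, log2 fold change 0.63, SE 0.13, adjusted p = 0.0238) and none fell. In the fit without d17 replicate 1, 4 of the cholesterol genes rose and 4 fell, close to the shares of all genes (15.2% and 18.0%). Only 17 of the 24 had a promoter in the table, so that the search for the sterol element was void. None of the 7 mitochondrially encoded transcripts tested (of 13) passed in edgeR's quasi-likelihood test, though 6 were higher at an unadjusted p under 0.05 and with DESeq2, and their median log2 fold change was 0.90, against 0.13 with the trend removed. Of these, mt-Co1 had 4764, 5179.7 and 5016 CPM in the d15 libraries and 5387, 15300.2 and 8666 CPM in the d17 libraries (1.02, adjusted p = 0.0944), highest in d17 replicate 2. All 7 rose in the fit without d17 replicate 1. Of 27 immediate early and stress genes, Npas4, an activity-dependent factor, rose (0.85, adjusted p = 0.042) and Ccn1, a matricellular protein, fell (-1.42, adjusted p = 0.0327), and Jun and Hsph1 did not pass (adjusted p = 0.0831 and 0.422). Jun was called lower with the trend removed (adjusted p = 0.0288). No gene of the glycolysis, cholesterol and stress lists was called higher without any 1 of the d15 replicates or d17 replicate 3, nor did the fall of Ccn1 pass in those fits. Without d17 replicate 1, 6 glycolysis genes rose and 5 fell, and 2 stress genes rose and 6 fell, against the same shares. Hk2 was called lower without d15 replicate 3 but not without d15 replicate 1 or 2 or d17 replicate 3.

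Globin genes changed from the embryonic to the adult forms. Hbb-y (ENSMUSG00000052187, chromosome 7, 103500956 to 103502423), the embryonic epsilon-like globin, was at 1125, 916 and 2987 CPM on d12, and it had 85.4, 87.6 and 65.9 CPM in the d15 libraries and 0.265, 0.185 and 0.186 CPM in the d17 libraries (log2 fold change -8.47, SE 0.23, adjusted p = 1.57e-05), and no gene named here fell further. Hba-x, the embryonic zeta-like globin, had 13.2, 13.8 and 12.4 CPM in the d15 libraries and 0.132, 0.37 and 0.248 CPM in the d17 libraries (log2 fold change -5.62, SE 0.31, adjusted p = 0.000784). Hbb-bh1, another embryonic globin, was at 0.405, 0.826 and 1.09 CPM on d15 and had reads in 1 library of d17 (0, 0.0617 and 0 CPM, adjusted p = 0.017). The adult globin Hbb-bs had 379.7, 283 and 332 CPM in the d15 libraries and 1033, 1565 and 1347 CPM in the d17 libraries (log2 fold change 2.04, SE 0.21, adjusted p = 0.00477), Hbb-bt rose by 1.35 (SE 0.20, adjusted p = 0.00971), Hba-a1 by 1.39 (SE 0.15, adjusted p = 0.00485) and Hba-a2 by 1.67 (SE 0.36, adjusted p = 0.0265). Hbb-bs and Hbb-bt, like Hba-a1 and Hba-a2, are near-identical copies between which reads could be split, so that the values of each are uncertain. The 20 erythroid markers in the table, of which 15 were tested, summed to 1112, 869 and 989 CPM on d15 and 2435, 2961 and 2722 CPM on d17, and 6 rose and 3 fell, against 7.46% and 5.58% of all genes. Slc4a1 and Sptb, proteins of the red cell membrane, did not pass (-0.46, adjusted p = 0.307, and 0.11, adjusted p = 0.826). Without d17 replicate 3 the erythroid calls were 2 rises and 2 falls, and without d15 replicates 1, 2 and 3 the rises were 4, 3 and 3.

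**Figure D4:**
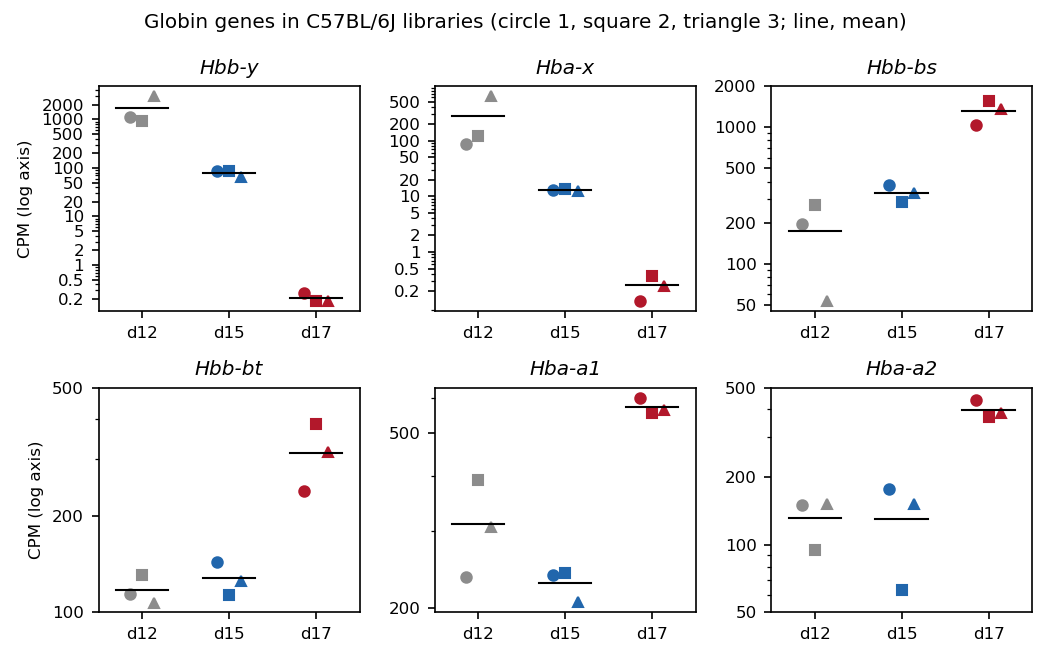
CPM on a log axis (vertical) of 6 globin genes in the C57BL/6J libraries of d12 (grey), d15 (blue) and d17 (red), with replicates 1, 2 and 3 as circle, square and triangle and the mean as a line. The embryonic Hbb-y and Hba-x end below 1 CPM on d17, and the 4 adult globin genes are higher in each d17 library than in any d15 library.

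In the lists of other cells of the brain the genes called made up 8.33% for blood vessels, 12.0% for microglia and macrophages, 13.04% for the choroid plexus and 5.88% for ependyma and cilia, against 13.0% of all genes. Of 24 blood vessel genes 2 rose, Slco1c1, the thyroid hormone transporter of the blood-brain barrier (16.1, 16.1 and 15.2 CPM on d15 and 39.2, 35.02 and 38.99 on d17, log2 fold change 1.32, SE 0.12, adjusted p = 0.00375), and Ly6c1 of endothelial cells (2.29, adjusted p = 0.00884). Of 25 genes of microglia and macrophages, Aif1 (2.32, 1.15 and 1.53 CPM on d15 and 3.91, 3.02 and 4.56 on d17, adjusted p = 0.045) and Pf4 (adjusted p = 0.0308) rose and Sall1, which neural progenitors also express, fell (82.3, 84.3 and 81.5 CPM on d15 and 35.6, 19.98 and 20.6 on d17, log2 fold change -1.64, SE 0.24, adjusted p = 0.00879). Pf4 did not pass with the trend removed (adjusted p = 0.163). In the choroid plexus list (23 genes), Prlr, the prolactin receptor, rose (1.85, adjusted p = 0.0118), Sulf1 (-1.48, adjusted p = 0.01) and Otx2 (-0.66, adjusted p = 0.042) fell, and Ttr, transthyretin, had 451, 355 and 439.7 CPM in the d15 libraries and 579.9, 487 and 508 CPM in the d17 libraries and did not pass (0.40, adjusted p = 0.147). Of 17 tested genes of ependyma and cilia, Ccdc153, a ciliary protein, rose from 0, 0.0885 and 0.059 to 0.596, 1.26 and 1.55 CPM (log2 fold change 4.52, SE 0.74, adjusted p = 0.0129). Aif1, Pf4, Prlr and Ccdc153 rest on low levels. Without d17 replicate 1, 12 vessel genes and 6 choroid plexus genes were called lower and 6 microglial and 5 ependymal genes higher. The rises of the microglial and choroid plexus lists did not pass without any 1 of the d15 replicates. Without d17 replicate 3, Slco1c1 was the 1 call left in these 4 lists.

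Markers of connective tissue differed widely between the libraries of a day. Col1a1, a collagen of connective tissue, had 2693, 83.4 and 154 CPM in the d15 libraries and 527, 8.45 and 25.5 CPM in the d17 libraries and did not pass (adjusted p = 0.376). Its partner Col1a2 had 1597, 96.3 and 162 CPM on d15 and 405, 16.00 and 45.4 on d17 (adjusted p = 0.359). Col2a1, the collagen of cartilage, which the early neuroepithelium also makes, had 461, 114 and 100.5 CPM in the d15 libraries and 34.4, 28.02 and 21.2 CPM in the d17 libraries (log2 fold change -2.96, SE 0.61, adjusted p = 0.0245). It was called lower without d15 replicate 1, which held the most cartilage markers, but not without d15 replicate 2 or d17 replicate 3. In the list of meninges and connective tissue 1 of 20 genes passed, Mfap4, a microfibril protein (67.2, 40.8 and 43.7 CPM on d15 and 24.4, 16.6 and 18.6 on d17, adjusted p = 0.0195), and in the list of cartilage and bone 1 of 14 tested, Col2a1. Of the meningeal genes 6 were called lower without d17 replicate 1, and none without d17 replicate 3 or any 1 of the d15 replicates. Of the 14 tested genes of skeletal muscle none passed in edgeR's quasi-likelihood test, 2 had an unadjusted p under 0.05 and 1 passed with DESeq2. The markers of the eye summed to 16.99, 14.3 and 14.8 CPM on d15 and 13.1, 12.3 and 10.9 CPM on d17, and those of the pituitary to 29.6, 20.3 and 19.2 and then 11.7, 9.83 and 9.73 CPM, so that both sums were lower in each d17 library than in any d15 library. Dct, a melanin enzyme, was the 1 of 8 eye genes that fell (-2.95, adjusted p = 0.00571), and Dsc3 (3.20, adjusted p = 0.0088) and Perp (1.06, adjusted p = 0.0209) the 2 of 8 epidermal genes that rose. Of 14 genes of sensory ganglia and olfactory epithelium, Gnal, a G protein that the striatum also uses, rose (0.80, adjusted p = 0.0145), and Pou4f1 and Ebf2 fell. The genes called were 12.5% of those tested for the eye and 21.4% for sensory ganglia, against 13.0% of all genes, and 7.46% of all genes rose beside the 2 of 8 of the epidermis. The 2 epidermal rises were 1 without d15 replicate 1 or 2 or d17 replicate 3, and the rise of Gnal did not pass without d17 replicate 3 or any 1 of the d15 replicates.

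Besides the members of lists, the largest rises with a log2 CPM of at least 3 included those of Cpne7, Ptgds, Shfl, Thy1, Cdkl2 and Car8. Ptgds (ENSMUSG00000015090, chromosome 2, 25352795 to 25362601), prostaglandin D synthase of meninges and choroid plexus, was at 2.94, 8.92 and 0.889 CPM on d12, and it had 23.6, 26.9 and 23.7 CPM in the d15 libraries and 159, 96.9 and 145 CPM in the d17 libraries (log2 fold change 2.502, SE 0.21, adjusted p = 0.0035). Thy1, a surface protein of mature neurons, had 6.27, 5.93 and 8.67 CPM in the d15 libraries and 38.7, 18.5 and 31.8 CPM in the d17 libraries (log2 fold change 2.16, SE 0.30, adjusted p = 0.00854). Cpne7, a copine that binds membranes in the presence of calcium, had 4.86, 5.34 and 4.92 CPM in the d15 libraries and 27.1, 30.4 and 25.7 CPM in the d17 libraries (log2 fold change 2.52, SE 0.14, adjusted p = 0.000784). For Cpne7 and Ptgds the lowest library of d17 was at least 3 times the highest of d15. Cdkl2, a kinase (2.12, adjusted p = 0.00294), Car8, a carbonic anhydrase-related protein of Purkinje cells (1.95, adjusted p = 0.00375), and Shfl, an antiviral factor (2.19, adjusted p = 0.0035), rose by about as much. At the same minimum level, the largest falls outside the lists included those of Dbx1 (14.8, 16.3 and 16.1 CPM on d15 and 1.32, 1.02 and 2.42 on d17, log2 fold change -3.24, SE 0.33, adjusted p = 0.00442), a homeodomain factor of the neural tube, and Tal2 (16.7, 18.1 and 14.9 CPM on d15 and 0.894, 2.4 and 2.29 on d17, log2 fold change -3.09, SE 0.35, adjusted p = 0.00515), a factor of GABAergic neurons of the midbrain. Celsr1, a planar polarity cadherin of progenitors, had 195, 215 and 192 CPM in the d15 libraries and 62.9, 13.9 and 24.5 CPM in the d17 libraries (log2 fold change -2.501, SE 0.51, adjusted p = 0.0232). Rhbdl3 (-2.24, adjusted p = 0.00424), Tfap2c (-2.21, adjusted p = 0.00515), which acts in basal progenitors of the cortex, and Gpc4, a glypican (-2.16, adjusted p = 0.0308), fell likewise.

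Outside the lists, Sox11, Hnrnpu, Nono, Cntn2, Snhg11 and Rian were among the genes with the most reads that passed. Sox11 (ENSMUSG00000063632, chromosome 12, 27384263 to 27392573), a SoxC factor of immature neurons, had 1621, 1929 and 1668 CPM in the d15 libraries and 910.3, 499.9 and 682 CPM in the d17 libraries (log2 fold change -1.25, SE 0.25, adjusted p = 0.0229). Hnrnpu, a nuclear RNA-binding protein (-0.65, adjusted p = 0.0422), Nono, a paraspeckle protein (-0.74, adjusted p = 0.042), and Cntn2, an axonal adhesion molecule (-1.24, adjusted p = 0.043), fell too. Snhg11 (740.3, 829.9 and 1145 CPM on d15 and 1356, 2633 and 1831 on d17, adjusted p = 0.0381) and Rian (625, 639 and 736 CPM on d15 and 973, 1928 and 1309.96 on d17, adjusted p = 0.0299), both long noncoding RNAs, were highest in d17 replicate 2.

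The same lists were measured in the other strains over the same days, where 22.1% of the genes tested were called in AKR/J and 27.3% in Cav1-null mice. Cav1 was at 0 to 0.509 CPM in the 6 Cav1-null libraries of d15 and d17 and at 12.8 to 39.9 CPM in those of C57BL/6J. Cell cycle genes fell in 59 of 60 cases in AKR/J and in 58 of 60 in Cav1-null mice, with medians of -1.25 and -1.01. Intermediate progenitor genes fell in 11 of 18 and 16 of 18, and astrocyte genes rose in 18 of 31 and 26 of 32. Presynaptic genes rose in 22 of 46 in AKR/J and 41 of 46 in Cav1-null mice, and of 44 genes of axon guidance 12 fell and 6 rose in AKR/J and 9 fell and 8 rose in Cav1-null mice, with medians of -0.20 and -0.01. Whether the change from d15 to d17 differed was tested by the interaction of strain and day over 12 libraries for each pair of strains. In AKR/J 1 of 21373 genes (0.00468%) passed, and 1617 had an unadjusted p under 0.05. None of the 1020 list genes tested passed in edgeR's quasi-likelihood test, 128 of them had an unadjusted p under 0.05, and 7 passed with DESeq2. Against Cav1-null mice 54 of 21431 genes (0.252%) passed, 47 with a higher and 7 with a lower change in C57BL/6J. This balance turned without C57BL/6J d17 replicate 1 (2050 higher and 3742 lower) and in the unfiltered fit (467 and 543). Of the 1017 list genes tested, 5 passed, among them Hbb-bs, Hbb-bt, Pou4f1 and the spliceosome subunit Snrpg, the last named after its values were seen. Snrpg passed narrowly (adjusted p = 0.0494) and did not pass with the trend removed (adjusted p = 0.0688). DESeq2 called 75 of the list genes, and 257 had an unadjusted p under 0.05. In the library labelled AKR/J d15 replicate 3 Xist was at 3.29 CPM, far below the other d15 and d17 libraries, with the Y-linked genes at 0, and without it the interaction called 1 gene.

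**Figure D5:**
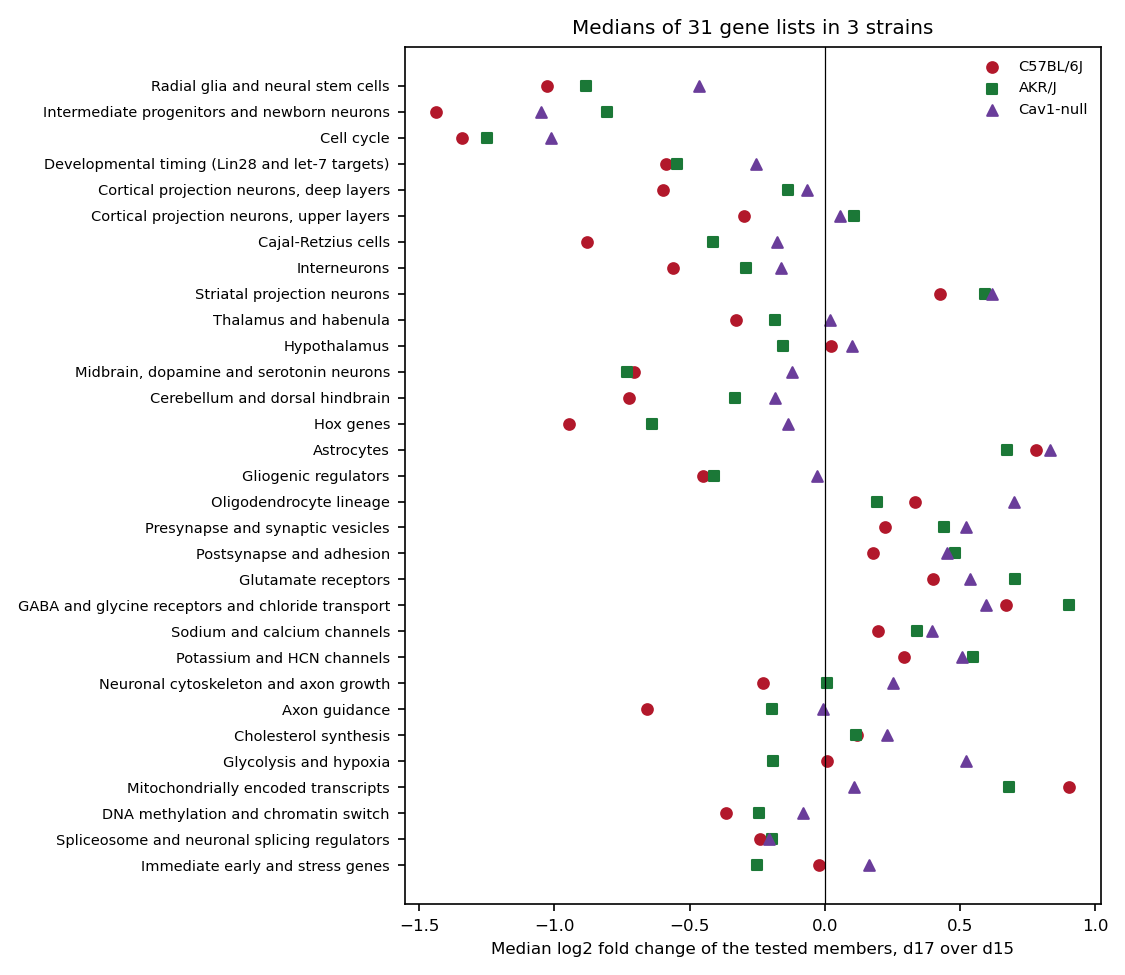
Median log2 fold change from d15 to d17 (horizontal axis) of the tested members of 31 gene lists (rows) in C57BL/6J (red circles), AKR/J (green squares) and Cav1-null mice (purple triangles), each from a fit of 6 libraries. The medians of the cell cycle list are -1.34, -1.25 and -1.01 and those of the astrocyte list 0.78, 0.68 and 0.83, while those of axon guidance spread from -0.66 to -0.01.

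Hbb-bs had 1531, 1929 and 1871 CPM on d15 and 1430.0, 290.5 and 842 CPM on d17 in Cav1-null mice, so that it went down there and up in C57BL/6J (difference 3.14, SE 0.55, adjusted p = 0.0433). Hbb-bt had 546, 663 and 658 CPM on d15 and 333, 77.1 and 225 on d17 in Cav1-null mice (difference 2.95, SE 0.52, adjusted p = 0.0433). On d15 both genes were lower in each C57BL/6J library than in any Cav1-null library. With the trend removed neither passed (adjusted p = 0.0512 and 0.0512). Pou4f1 was at 10.6, 9.84 and 10.3 CPM on d15 and 8.96, 9.25 and 8.78 on d17 in Cav1-null mice, close to the d17 level of C57BL/6J (difference -1.62, SE 0.22, adjusted p = 0.0174, and adjusted p = 0.0165 with the trend removed). Without C57BL/6J d17 replicate 1 the interaction called 5792 genes against Cav1-null mice and 823 against AKR/J, and without 1 library of Cav1-null mice, d15 replicate 1, d15 replicate 3 or d17 replicate 3, it called none.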

How the data were processed

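Poly(A) RNA of whole fetal brains was sequenced. The authors deposited raw read counts per gene. FastQC, cutadapt, fastp, STAR, bedtools and edgeR and the build GRCm39 are named in the submitters' processing notes, while versions, the counting tool and strandedness are not given in the sources used here, so that overlapping and antisense genes are uncertain. Libraries were grouped by the labels. Genes were filtered with filterByExpr, scaled by TMM and tested with edgeR 4.0.16 (quasi-likelihood test, R 4.3.3) between the 3 d15 and 3 d17 libraries, and p-values were adjusted after Benjamini and Hochberg over all genes tested and called under 0.05. Interactions of strain and day were fitted over 12 libraries. Errors are SE of log2 fold changes. The members and lists were chosen with earlier results of these data known, and no set test was run.

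Named were the 12 largest rises and 12 largest falls without overlap between libraries at a mean log2 CPM of at least 3, per list up to 4 called members with the largest changes and up to 2 not called with the highest level, up to 6 interaction genes per strain, globins, sex-linked genes, and the 6 called genes of the highest level in each direction. Some are given by count only, and some are not reported here. Alternatives were DESeq2 1.42.0, edgeR's likelihood ratio test, other scaling, filters, libraries in the model, a fold minimum, a replicate block, omission of each library and, chosen after seeing the data, removal of each library's trend with GC content and length (splines of 5 degrees of freedom, GENCODE vM39 models). Coordinates are GRCm39. Fits were tested on simulated data. Depth was 29700746 to 39759702 reads.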

Additional observations from a re-analysis of the deposited data

Results flagged for a closer look

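The change from d15 to d17 differed between C57BL/6J and another strain, by the test of the interaction, in the following named genes. Gm13736, a predicted gene, had 3.97, 3.28 and 3.27 CPM on d15 and 0, 0 and 0.031 on d17 in C57BL/6J, 11.8, 12.8 and 9.78 CPM on d15 and 11.6, 12.3 and 12.5 on d17 in AKR/J and 0.0697, 0.0645 and 0.102 CPM on d15 and 0.0334, 0.0339 and 0.254 on d17 in Cav1-null mice, so that it was present in every AKR/J library, near 0 in every Cav1-null library and lost between the 2 days in C57BL/6J (difference -7.99, SE 0.50, adjusted p = 3.47e-05 against AKR/J and difference -8.30, SE 1.19, adjusted p = 0.0201 against Cav1-null mice, of which the size rests on libraries near 0 and is no bound). Gm42992 had 0.486, 0.826 and 0.826 CPM on d15 and 2.62, 1.88 and 4.56 on d17 in C57BL/6J and 5.47, 1.97 and 4.91 CPM on d15 and 1.57, 1.59 and 1.02 on d17 in Cav1-null mice (difference 3.74, SE 0.61, adjusted p = 0.0341). Gm10862 had 0.162, 0.413 and 0.177 CPM on d15 and 2.98, 3.14 and 4.43 on d17 against 2.02, 0.936 and 2.27 CPM on d15 and 2.74, 2.34 and 2.83 on d17 (difference 3.29, SE 0.54, adjusted p = 0.0341), and 2900027M19Rik 0.351, 0.767 and 0.708 CPM on d15 and 3.81, 3.24 and 3.97 on d17 against 3.84, 3.49 and 3.83 CPM on d15 and 2.04, 2.81 and 2.51 on d17 (difference 3.28, SE 0.37, adjusted p = 0.0173). With the GC and length trend removed, the adjusted p was 0.0165 for Gm13736, 0.0352 for Gm42992, 0.0512 for Gm10862 and 0.0165 for 2900027M19Rik. The globin genes Hbb-bs and Hbb-bt differed from Cav1-null mice by 3.14 and 2.95 on the log2 scale, with rises in C57BL/6J and lower means on d17 in Cav1-null mice, and Pou4f1 by -1.62. Causes of these differences were not tested.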

How the results depend on the processing

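Of the alternatives run, RLE factors (2648), the filter of 10 reads (2486), upper-quartile factors (3050), library sizes alone (3067) and no filter (2980) left the 2594 genes within 1.5 times. DESeq2 called 4581 genes (2340 higher, 2241 lower) and edgeR's likelihood ratio test 4181 (2353 and 1828). The 9 C57BL/6J libraries in 1 model gave 2068, and all 27 gave 4565, with 2957 lower and 35.2% of the calls higher. A minimum log2 fold change of 1 left 1436 (957 and 479), and removing the GC and length trend gave 3977, 1818 of them lower. Without single libraries the counts ranged from 160 to 6990 in all, from 92 to 3202 higher and from 68 to 3788 lower.

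The numbers of the labels were not taken as pairs, since the deviations of same-numbered libraries of d15 and d17 correlated with r = 0.22, 0.05 and -0.02. A replicate block gave 2359 calls (1185 and 1174), 50.2% of them higher, and 3498 with the trend removed as well. With the block 9 of the 20 meningeal genes fell, and of the striatal genes 3 rose and 3 fell. Of the cytoskeletal genes 1 rose with the block, and Stmn2 no longer passed (edgeR adjusted p = 0.0656).

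The 1 gene of the interaction with AKR/J became 45 with DESeq2, 4 with no filter, 2 with the replicate block and none with 27 libraries in edgeR, where 1173 genes had an unadjusted p under 0.05, and ranged from 1 to 823 without single libraries. The 54 genes against Cav1-null mice became 1436 with DESeq2, 131 with library sizes alone, 1010 with no filter, 4 with 27 libraries, 42 with the replicate block and 21 with the trend removed, and ranged from 0 to 5792 without single libraries. In the 3 fits without a call, 3613 to 4166 genes had an unadjusted p under 0.05. The causes were not tested.

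Of 86 counts of list members called higher or lower, 26 moved by over 1.5 times with DESeq2, 24 with the trend removed, 14 with library sizes alone, 12 with the replicate block and 36 with 27 libraries. Omission of a library moved 48, 55 and 41 of them for d15 replicates 1, 2 and 3, and 42, 13 and 57 for d17 replicates 1, 2 and 3. No called gene named here changed sign, for which the lack of overlap between the libraries of the 2 days left little room. Of 156 the call was kept by 156 with DESeq2, 153 with the trend removed, 152 with library sizes alone, 142 with the replicate block and 141 with 27 libraries. When single libraries were left out, in Hoxa5, log2 fold changes ranged from -1.84 to 10.91, and in Hoxb5, log2 fold changes ranged from -1.78 to 10.20. Neither gene was called, except without d15 replicate 3 (edgeR adjusted p = 0.0428 and 0.0475), where both were highest, since they had no reads in the other d15 libraries. Both were also above 0 with the replicate block. With 3 libraries a day, 46% of planted 2-fold and 99% of planted 4-fold changes were recovered on simulated counts of 19398 genes, so that smaller changes can be missed. These counts were simulated without a trend with GC content, unlike the real libraries, so that the recovery in the real data can differ.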

Other observations

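Slc7a11, the cystine transporter of the cell membrane, was chosen after its values were seen. It had 12.97, 17.7 and 8.73 CPM on d12, 128, 124 and 126 CPM on d15 and 20.8, 20.3 and 104 CPM on d17, so that the 3 libraries of d15 were nearly equal and d17 replicate 3 stood close to them while d17 replicates 1 and 2 were far below (adjusted p = 0.179).

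Hmga1b, also chosen after its values were seen, had 38.8, 26.9 and 0.191 CPM on d12, 17.96, 17.97 and 0.059 CPM on d15 and 15.1, 0.123 and 11.3 CPM on d17 (adjusted p = 0.883). Rps2-ps10, a pseudogene, had 107, 44.7 and 0.349 CPM, 39.8, 36.9 and 0.324 CPM and 33.1, 0.432 and 54.1 CPM on these days (adjusted p = 0.918), and Tmem181c-ps had 24.7, 9.14 and 1.08 CPM, 12.9, 13.5 and 0.324 CPM and 36.4, 0.432 and 19.6 CPM (adjusted p = 0.579). In these 3 genes, each with near-identical relatives elsewhere in the genome, the same libraries, d12 replicate 3, d15 replicate 3 and d17 replicate 2, were near 0.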
